A study of Mus musculus with 16 samples.

Results

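Of 46078 genes counted in HSCs sorted by MAC-1, 8 integrin subunit genes are described, those of beta-1, beta-7, alpha-v and 5 alpha subunits that pair with beta-1 or beta-7: *Itgb1*, *Itgb7*, *Itga4*, *Itga5*, *Itga6*, *Itga9*, *Itga2* and *Itgav*. They were chosen by gene name, and each name stood on 1 line of the counts. RNA came from 16 samples of 5 HSC populations, all WT, labelled B6.SJL and sorted as LSK SLAM cells (lineage-, cKIT+, SCA1+, CD48-, CD150+) from cKIT-enriched bone marrow. SS HSCs came from untreated mice and were divided into SS MAC-1- (n = 3) and SS MAC-1low (n = 3). The 4 week HSCs came from recipients irradiated with 900 cGy that had received 8000 LSK cells 4 weeks before the sort, and were divided into 4 week MAC-1- (n = 3), 4 week MAC-1low (n = 4) and 4 week MAC-1+ (n = 3). The study marked donor cells by the CD45.1 allele of B6.SJL in transplants of this kind, and whether the sort for RNA used that marker is not given in the sources used here. Nothing states that samples of a population came from separate mice, so p-values measure the spread between these samples, which may be technical.

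An integrin is a pair of 1 alpha and 1 beta subunit that spans the membrane and ties the cytoskeleton to matrix or to other cells. Beta-1 is the shared partner of many alpha subunits, beta-7 pairs with alpha-4, and alpha-v pairs with beta-1 and with other beta subunits. In bone marrow, alpha-4 integrins bind VCAM-1 and fibronectin, alpha-5 binds fibronectin, and alpha-6 binds laminin, and these contacts are known for their part in the homing and retention of HSCs.

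Depth ran from 13781278 to 28580658 counts per sample, with 14533 to 17576 genes detected. *Itgam*, the MAC-1 alpha subunit, averaged 0.122 CPM (counts scaled to a common library size) in SS MAC-1-, 1.08 in SS MAC-1low, 0.594 in 4 week MAC-1-, 1.48 in 4 week MAC-1low and 14.04 in 4 week MAC-1+ HSCs. The *Itgam* means followed the order of the sort, and the 4 week MAC-1+ samples, from 3.797 to 30.0 CPM, overlapped with the 0.112 to 4.36 CPM of the 4 week MAC-1low samples. *Itgb2*, the MAC-1 beta subunit, did not follow that order at 4 weeks. It averaged 26.8 CPM in 4 week MAC-1-, 11.9 in 4 week MAC-1low and 13.2 in 4 week MAC-1+ HSCs. In SS HSCs it averaged 5.90 CPM in MAC-1- and 20.1 in MAC-1low. The summed CPM of 8 HSC markers lay between 1477 and 3457 in the samples of all populations except 4 week MAC-1-, where it was 691 to 890 and *Procr* averaged 7.03 CPM. In the same 4 week MAC-1- samples 11 megakaryocyte and platelet markers summed to 4331 to 6783 CPM, against 159 to 1111 CPM elsewhere. Most of that sum was *Pf4*, with a mean of 4957 of 5423 CPM. *Itga2b*, *Gp9*, *Gp1bb*, *Ppbp*, *Vwf*, *Itgb3* and *Treml1* also had their highest means there. *Gp1ba* (12.7 CPM) was close to SS MAC-1- (12.1) and *Clec1b* (10.2) to 4 week MAC-1+ HSCs (8.90), and *Gp6* was near 0. The marker sums are per sorted sample, in which fewer cells of a type and less RNA per cell cannot be told apart.

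The starts of *Itgb1* and *Itga4* are shown because these were the members with an unadjusted p below 0.05 in a pairwise comparison. RefSeq's promoter windows held 7 of the 8 genes. The 250 bases before each start are given 5′ to 3′ on the plus strand of GRCm38.p6, at chr8:128685404-128685653 and chr2:79255176-79255425, with the GC box GGGCGG in capitals.

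Itgb1: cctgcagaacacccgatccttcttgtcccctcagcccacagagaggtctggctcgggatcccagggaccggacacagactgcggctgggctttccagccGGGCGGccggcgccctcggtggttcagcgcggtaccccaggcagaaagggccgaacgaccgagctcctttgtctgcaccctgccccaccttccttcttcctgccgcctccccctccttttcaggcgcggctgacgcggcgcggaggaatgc

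Itga4: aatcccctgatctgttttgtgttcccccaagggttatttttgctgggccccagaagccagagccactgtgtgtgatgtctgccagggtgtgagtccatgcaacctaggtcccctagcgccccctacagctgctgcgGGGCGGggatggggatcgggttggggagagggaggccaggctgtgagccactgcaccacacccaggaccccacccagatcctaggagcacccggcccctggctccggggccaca

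Each window held 1 GC box on the printed strand or its complement. At least 1 stood in 32.7% of 32841 windows of this length. Neither held the ETS core CGGAAG, the TATA box TATAAA or the GATA core AGATAA, which stood on either strand in 13.6%, 12.4% and 9.99% of all windows. The share of G and C was 68.0% before *Itgb1* and 64.0% before *Itga4*, with a median of 52.4% over all windows. A match of letters describes the window and does not show a bound site.

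*Itgb1*, which encodes beta-1, was the most abundant of the 8 genes in all 16 samples when CPM were divided by the length of the gene's exons. Its level averaged 39.0 CPM per kb, and the next levels were 11.8 for *Itga6* (alpha-6), 8.47 for *Itga4* (alpha-4), 4.54 for *Itgav* (alpha-v) and 1.55 for *Itga5* (alpha-5). *Itgb7* (beta-7) averaged 0.841, *Itga2* (alpha-2, a collagen receptor) 0.198 and *Itga9* (alpha-9, a receptor for tenascin and VCAM-1) 0.0620 CPM per kb. *Itga6* was above *Itga4* in 12 of 16 samples, *Itga4* above *Itgav* in 13 and *Itgav* above *Itga5* in 14. *Itga5* was above *Itgb7* in 12 samples, *Itgb7* above *Itga2* in 14 and *Itga2* above *Itga9* in 5 of 16. The order of neighbours was thus not the same in every sample below *Itgb1*, and the transcript forms behind each exon length were not measured.

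Of the 8 genes, 6 passed the filter on low counts and were tested, and *Itga2* and *Itga9* did not pass. In the joint test of any difference among the 5 populations, 0 of 6 members were called at an adjusted p below 0.1, where 2.22% of 13661 genes were. None of the 6 had an unadjusted joint p below 0.05, and adjusted p ran from 0.602 for *Itgb1* to 0.910 for *Itga6* (edgeR, quasi-likelihood test). Pairwise, 0 of 6 members were called in 4 week MAC-1+ relative to 4 week MAC-1- HSCs, against a background of 3.25% of genes, and 0 of 6 in 4 week MAC-1low relative to 4 week MAC-1- HSCs, against 0.278%. Likewise 0 of 6 were called in 4 week MAC-1+ relative to 4 week MAC-1low HSCs (background 0%) and in SS MAC-1low relative to SS MAC-1- HSCs (background 0.0146%). From SS to 4 weeks, 0 of 6 were called within MAC-1- HSCs (background 0.432%) and within MAC-1low HSCs (background 0.0439%). Against 4 week MAC-1+ HSCs, 0 of 6 were called from SS MAC-1- HSCs (background 2.36%) and from SS MAC-1low HSCs (background 1.42%). With so low a background, 6 genes without a call are near what all genes gave. Of 48 pairwise tests of single members, 2 had an unadjusted p below 0.05, and between 6.85% and 14% of all genes did so in these 8 comparisons. DESeq2 and limma-voom called 0 members in each comparison as well, while they called 318 to 1414 and 0 to 866 genes in the pairwise comparisons.

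**Figure D1:**
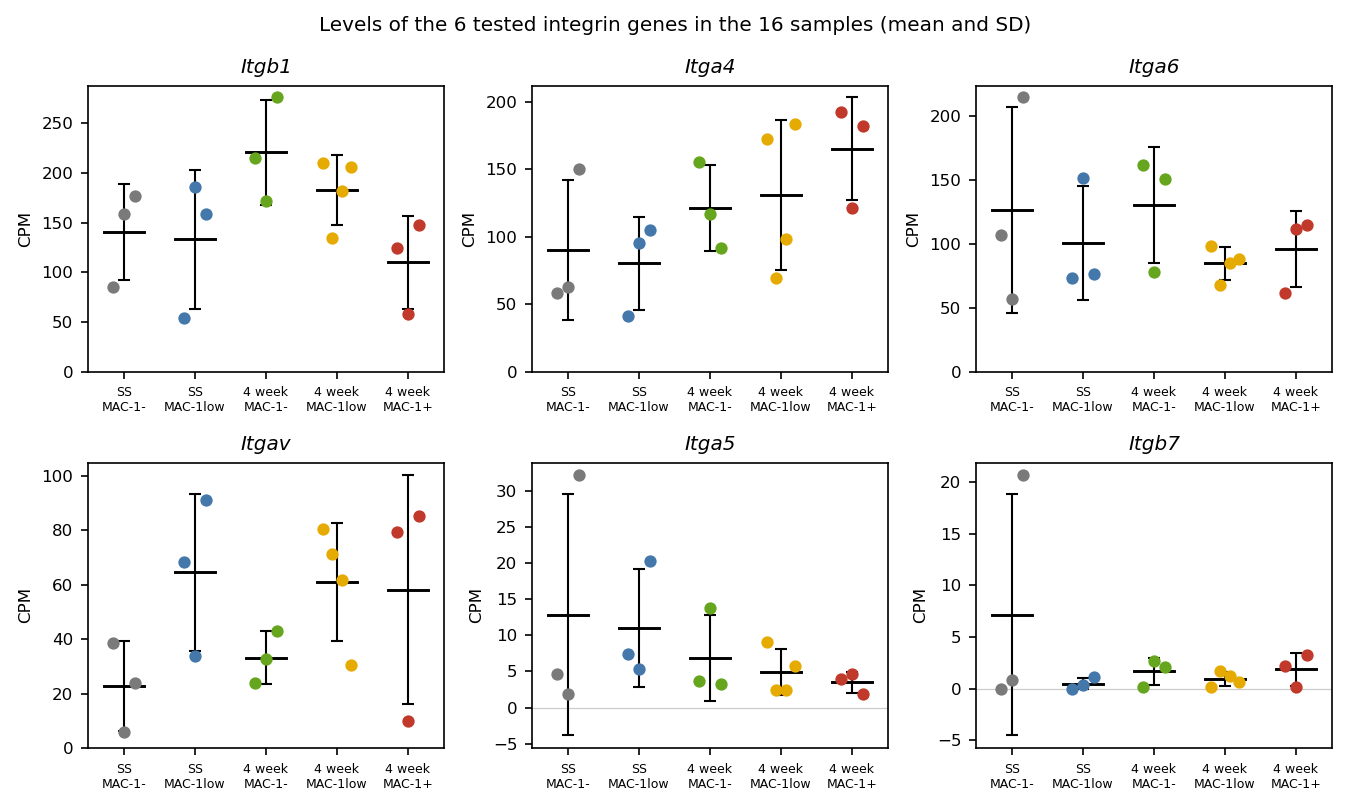
CPM (y axis, linear) of the 6 tested integrin genes in each of the 16 samples, by HSC population (x axis); coloured points are samples, wide black bars the mean and thin bars the SD. In *Itgb1* the 3 4 week MAC-1+ samples, 58.1 to 148 CPM, lie below the 3 4 week MAC-1- samples, 171 to 277 CPM, while for *Itga6* the points of all populations overlap.

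*Itgb1* (ENSMUSG00000025809), at chromosome 8 from 128685654 to 128733200 on the plus strand (GENCODE M21, GRCm38), was lowest on average in 4 week MAC-1+ HSCs and highest in 4 week MAC-1- HSCs. The SS MAC-1- samples held 85.7, 159 and 177 CPM, and the SS MAC-1low samples 54.1, 187 and 159 CPM. The 4 week MAC-1- samples held 215, 171 and 277 CPM and the 4 week MAC-1low samples 211, 134, 182 and 206 CPM. The 4 week MAC-1+ samples held 125, 58.1 and 148 CPM. All 3 4 week MAC-1+ samples were below all 3 4 week MAC-1- samples, while both SS populations overlapped with each other and with 4 week MAC-1+ HSCs. Means ± SD ran in the order 221 ± 52.8 (4 week MAC-1-, n = 3), 183 ± 34.9 (4 week MAC-1low, n = 4), 141 ± 48.6 (SS MAC-1-, n = 3), 133 ± 69.9 (SS MAC-1low, n = 3) and 110 ± 46.7 CPM (4 week MAC-1+, n = 3), and no pair of neighbours in this order differed beyond its spread.

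The log2 fold change of *Itgb1* in 4 week MAC-1+ relative to 4 week MAC-1- HSCs was -1.001 with an SE of 0.44 and a 95% interval from -1.94 to -0.07. The unadjusted p was 0.0375 and the adjusted p 0.335 (edgeR), which does not pass the threshold, and groups without overlap were seen for 21.7% of all genes in this comparison. Without 4 week MAC-1+ replicate 2, the sample at 58.1 CPM, the log2 fold change was -0.67 with an adjusted p of 0.619. Against 4 week MAC-1low HSCs the log2 fold change of 4 week MAC-1+ HSCs was -0.73 with an SE of 0.41 and an adjusted p of 0.788 (edgeR). The other 6 pairwise log2 fold changes of *Itgb1* lay between -0.35 and 0.65, and their intervals all held 0. The neutrophil markers, 9 genes, summed to 164, 956 and 7281 CPM in the 4 week MAC-1+ samples whose *Itgb1* was 125, 58.1 and 148 CPM, against 23.1 to 168 CPM in the other samples. Whether neutrophils or megakaryocytes were among the sorted cells was not tested, nor was any part of such cells in the *Itgb1* values.

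*Itga4* (ENSMUSG00000027009), at chromosome 2 from 79255426 to 79333123 on the plus strand, encodes the alpha-4 subunit that pairs with beta-1 or beta-7, and it had its highest mean in 4 week MAC-1+ HSCs. The SS MAC-1- samples held 58.5, 62.6 and 150 CPM and the SS MAC-1low samples 41.0, 95.03 and 105 CPM. The 4 week MAC-1- samples held 156, 117 and 91.7 CPM, and the 4 week MAC-1low samples 172, 69.3, 98.3 and 184 CPM. The 4 week MAC-1+ samples held 192, 122 and 182 CPM. All 3 4 week MAC-1+ samples were above all 3 SS MAC-1low samples, and they overlapped with each of the other populations. The log2 fold change of 4 week MAC-1+ relative to SS MAC-1low HSCs was 1.04 with an SE of 0.47, a 95% interval from 0.04 to 2.05, an unadjusted p of 0.0430 and an adjusted p of 0.400 (edgeR). In that comparison 16.3% of all genes had groups without overlap. Against SS MAC-1- HSCs the log2 fold change was 0.87 with an SE of 0.47 and an adjusted p of 0.427, and against 4 week MAC-1- HSCs it was 0.45 with an SE of 0.47 and an adjusted p of 0.790 (edgeR). The means, from highest to lowest, were 165 ± 38.1 (4 week MAC-1+), 131 ± 55.7 (4 week MAC-1low), 121 ± 32.2 (4 week MAC-1-), 90.3 ± 51.6 (SS MAC-1-) and 80.3 ± 34.4 CPM (SS MAC-1low), and neighbours in this order lay within each other's spread.

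*Itga6* (ENSMUSG00000027111), at chromosome 2 from 71745616 to 71858416 on the plus strand, encodes the laminin receptor subunit alpha-6, and its levels overlapped among all populations. The SS MAC-1- samples held 107, 57.4 and 215 CPM, a spread as wide as that over all 16 samples. The SS MAC-1low samples held 73.1, 152 and 76.5 CPM and the 4 week MAC-1- samples 162, 78.2 and 151 CPM. The 4 week MAC-1low samples, at 98.7, 67.9, 85.6 and 88.1 CPM, were the closest together. The 4 week MAC-1+ samples held 61.5, 111.9 and 115 CPM. The smallest p was that of 4 week MAC-1low relative to 4 week MAC-1- HSCs, where the log2 fold change was -0.62 with an SE of 0.43 and an adjusted p of 0.910 (edgeR). In 4 week MAC-1+ relative to 4 week MAC-1- HSCs the log2 fold change was -0.44, with a 95% interval from -1.42 to 0.54 and an adjusted p of 0.789 (edgeR). That interval includes more than a 2-fold decrease, so an equal level was not shown. The means were 130 ± 45.6 (4 week MAC-1-), 127 ± 80.7 (SS MAC-1-), 101 ± 44.6 (SS MAC-1low), 96.2 ± 30.1 (4 week MAC-1+) and 85.1 ± 12.8 CPM (4 week MAC-1low).

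*Itgav* (ENSMUSG00000027087), at chromosome 2 from 83724397 to 83806916 on the plus strand, encodes alpha-v, which binds vitronectin and fibronectin, and it had lower means in both MAC-1- populations than in the MAC-1low populations. The SS MAC-1- samples held 38.8, 5.97 and 23.9 CPM and the SS MAC-1low samples 68.4, 34.0 and 91.2 CPM. The 4 week MAC-1- samples held 23.8, 32.8 and 43.1 CPM, and the 4 week MAC-1low samples 80.4, 71.1, 61.8 and 30.5 CPM. The 4 week MAC-1+ samples held 79.4, 9.86 and 85.3 CPM. In both pairs of MAC-1low and MAC-1- populations the ranges overlapped through 1 low MAC-1low sample, and 4 week MAC-1+ replicate 2 was far below the other two. In SS MAC-1low relative to SS MAC-1- HSCs the log2 fold change was 1.495 with an SE of 0.75, a 95% interval from -0.11 to 3.10 and an adjusted p of 0.555 (edgeR). For 4 week MAC-1+ relative to SS MAC-1- HSCs it was 1.35 with an SE of 0.75 and an adjusted p of 0.448, and against 4 week MAC-1- HSCs it was 0.81 with an SE of 0.74 and an adjusted p of 0.739 (edgeR). The means were 64.5 ± 28.8 (SS MAC-1low), 60.95 ± 21.7 (4 week MAC-1low), 58.2 ± 42.0 (4 week MAC-1+), 33.2 ± 9.67 (4 week MAC-1-) and 22.9 ± 16.4 CPM (SS MAC-1-).

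**Figure D2:**
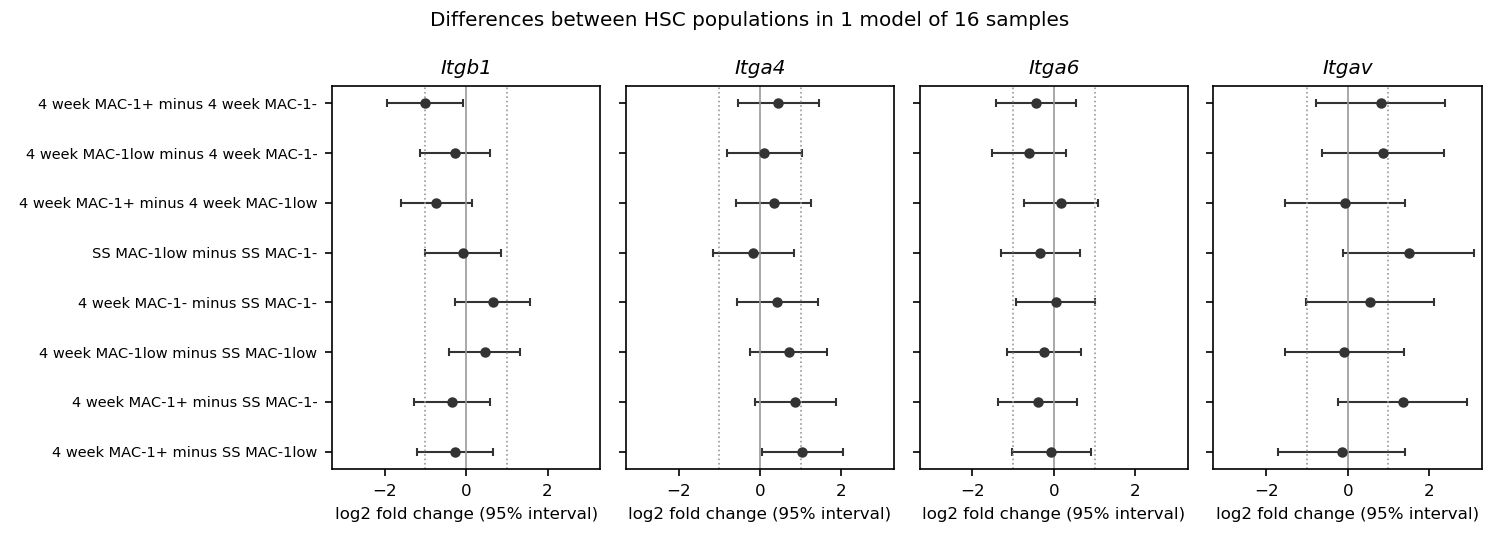
Log2 fold changes (points) with 95% intervals (bars) of *Itgb1*, *Itga4*, *Itga6* and *Itgav* in the 8 pairwise comparisons, with the first population named minus the second; the solid line marks 0 and dotted lines an absolute log2 fold change of 1. Of the intervals drawn, 2 leave out 0, that of *Itgb1* in 4 week MAC-1+ minus 4 week MAC-1- HSCs and that of *Itga4* in 4 week MAC-1+ minus SS MAC-1low HSCs, and neither passed the adjusted threshold.

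*Itga5* (ENSMUSG00000000555), at chromosome 15 from 103344286 to 103366763 on the minus strand, encodes the fibronectin receptor subunit alpha-5 and was far lower, with a wide spread within populations. The SS MAC-1- samples held 4.62, 1.89 and 32.1 CPM and the SS MAC-1low samples 7.41, 5.31 and 20.4 CPM. The 4 week MAC-1- samples held 3.64, 13.8 and 3.20 CPM, and the 4 week MAC-1low samples 9.01, 2.39, 2.47 and 5.70 CPM. The 4 week MAC-1+ samples held 3.94, 4.71 and 1.90 CPM, all below the SS MAC-1low samples. The log2 fold change of that comparison was -1.65 with an SE of 1.22 and an adjusted p of 0.665 (edgeR), it was -0.87 without SS MAC-1low replicate 3, and 16.3% of genes had groups without overlap there. Against SS MAC-1- HSCs it was -1.87 with an SE of 1.23 and an adjusted p of 0.544 (edgeR), and 0.11 without SS MAC-1- replicate 3. Against 4 week MAC-1- HSCs it was -0.97 with an SE of 1.20 and an adjusted p of 0.839 (edgeR), and 0.04 without 4 week MAC-1- replicate 2.

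*Itgb7* (ENSMUSG00000001281), at chromosome 15 from 102215995 to 102231944 on the minus strand, encodes the beta-7 subunit of the receptor for MAdCAM-1 on lymphocytes, and most of its counts came from 1 sample. SS MAC-1- replicate 3 held 402 of the 768 counts, and the other SS MAC-1- samples held 0 and 16. The SS MAC-1low samples held 0, 7 and 21 counts, the 4 week MAC-1- samples 3, 71 and 35, the 4 week MAC-1low samples 2, 38, 24 and 18, and the 4 week MAC-1+ samples 46, 2 and 83. Counts of 3 or fewer were thus met in each population, and a count of 0 allows up to 3 counts, or 0.220 CPM in the shallowest sample. The log2 fold change of SS MAC-1low relative to SS MAC-1- HSCs was -3.85 with an SE of 2.33 and an adjusted p of 0.644 (edgeR), and 0.22 without SS MAC-1- replicate 3. That of 4 week MAC-1- relative to SS MAC-1- HSCs was -2.10 with an SE of 2.16 and an adjusted p of 0.828 (edgeR), and 1.96 without this sample. That of 4 week MAC-1+ relative to 4 week MAC-1- HSCs was 0.16 with an SE of 2.08 (edgeR adjusted p = 0.994). SS MAC-1- replicate 3 was also the highest of all samples for *Itga5* and *Itga6*, and had the most genes detected, 17576 against at most 16675 elsewhere. Its 8 B and T cell markers summed to 104 CPM, between the 68.0 and 143 CPM of the other SS MAC-1- samples.

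*Itga2* (ENSMUSG00000015533), at chromosome 13 from 114833081 to 114932100 on the minus strand, was counted almost wholly in SS MAC-1low replicate 1, with 417 of 433 counts or 21.8 CPM. In the other 15 samples it had 0 to 4 counts, with 10 samples at 0 and all 4 week MAC-1+ samples among them. *Itga9* (ENSMUSG00000039115), at chromosome 9 from 118606690 to 118901003 on the plus strand, had 148 counts, of which 90 came from SS MAC-1low replicate 1 and 38 from SS MAC-1low replicate 3. The third SS MAC-1low sample had 0 counts of *Itga9*, and the 13 samples of other populations had 0 to 7. SS MAC-1low replicate 1 was also the lowest of all samples for *Itgb1*, at 54.1 CPM, and for *Itga4*, at 41.0 CPM. Its megakaryocyte and platelet markers summed to 697 CPM, against 322 and 407 CPM in the other SS MAC-1low samples, and its endothelial and stromal markers to 11.2 against 7.61 and 3.76 CPM. Higher sums stood in samples with 0 to 4 *Itga2* and 0 to 7 *Itga9* counts. The 4 week MAC-1- samples held 4331 to 6783 CPM of the megakaryocyte and platelet markers. The 4 week MAC-1low samples held 14.7 to 38.2 CPM of the endothelial and stromal markers. Whether such cells were present, and any part of them in the *Itga2* and *Itga9* counts, was not tested. Counts held by 1 sample were common at this depth: of 3057 genes with 200 to 1000 counts in all, 38.7% had over 50% of them in 1 sample and 10.9% over 90%. *Itgb7* and *Itga2* belong to this class of totals. Of the 3760 genes with 10000 to 60000 counts, the class of *Itgb1*, *Itga4*, *Itga6* and *Itgav*, this was so for 0.106% and 0%.

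**Figure D3:**
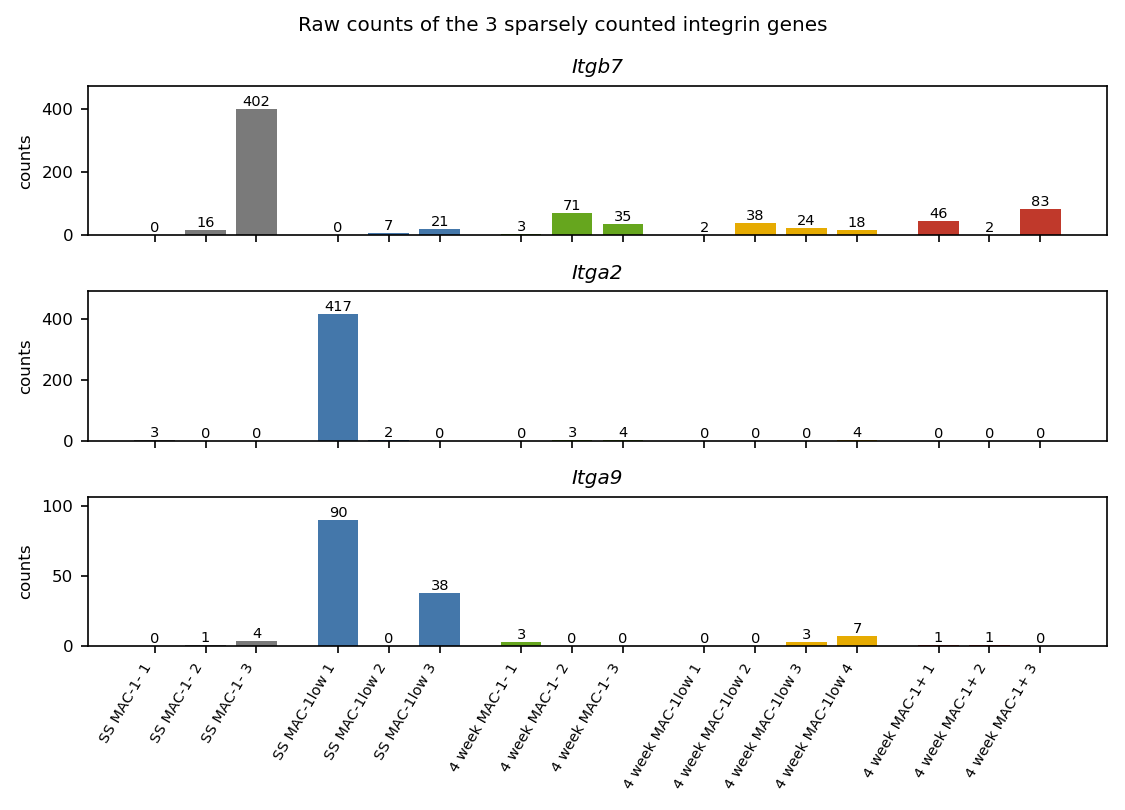
Raw counts (y axis, linear, a scale for each gene) of *Itgb7*, *Itga2* and *Itga9* in each sample (x axis, population and replicate number), with the count written above each bar. SS MAC-1- replicate 3 holds 402 of 768 *Itgb7* counts, and SS MAC-1low replicate 1 holds 417 of 433 *Itga2* counts and 90 of 148 *Itga9* counts.

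The spread between replicates followed the same line. The biological coefficient of variation fitted by edgeR was 0.398 for *Itgb1*, 0.423 for *Itga6* and 0.427 for *Itga4*, below the median of 0.929 over all genes tested. It was 0.640 for *Itgav*, 0.975 for *Itga5* and 1.55 for *Itgb7*. Over the 8 comparisons the log2 fold changes ran from -1.001 to 0.65 for *Itgb1*, from -0.17 to 1.04 for *Itga4*, from -0.62 to 0.18 for *Itga6*, from -0.15 to 1.495 for *Itgav*, from -1.87 to -0.22 for *Itga5* and from -3.85 to 1.91 for *Itgb7*. The lowest and highest 95% bounds reached -1.94 and 1.58 on the log2 scale for *Itgb1*, -1.16 and 2.05 for *Itga4*, and -1.52 and 1.09 for *Itga6*. For *Itgav* they reached -1.72 and 3.10, for *Itga5* -4.49 and 2.31, and for *Itgb7* -8.81 and 6.50. Pooled over the 8 comparisons, the bounds of every tested gene passed an absolute log2 fold change of 1 in both directions. The interval of a single comparison need not do so. That of *Itgb1* in 4 week MAC-1+ relative to 4 week MAC-1- HSCs ran from -1.94 to -0.07. Changes of that size were thus not excluded in each direction in at least 1 comparison of each gene. The pooled bounds were widest for *Itgav*, *Itga5* and *Itgb7*, whose many-fold changes could not be told from none in some comparisons.

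Whether MAC-1low and MAC-1- HSCs differed otherwise at 4 weeks than in SS was tested as an interaction. It called 0 of 6 members, where 0.0586% of all genes were called. The interaction was -0.19 (SE 0.59) for *Itgb1*, 0.28 (SE 0.64) for *Itga4*, -0.28 (SE 0.63) for *Itga6* and -0.62 (SE 1.01) for *Itgav* on the log2 scale, with adjusted p from 0.888 to 1.00 over the 6 genes (edgeR). Over the 8 pairwise comparisons the median log2 fold change of the 6 members ran from -0.38 to 0.23. The median for 4 week MAC-1+ relative to 4 week MAC-1- HSCs was -0.14 with 3 of 6 members above 0, and 0.07 over all genes. For 4 week MAC-1- relative to SS MAC-1- HSCs it was 0.23 with 4 of 6 above 0, and -0.03 over all genes.

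The mix of alpha subunits was described as each gene's share of the summed CPM per kb of the 6 alpha genes. *Itga6* had the highest level of them in 11 of 16 samples, *Itga4* in 4 and *Itgav* in 1, and the 4 samples led by *Itga4* were 2 4 week MAC-1low and 2 4 week MAC-1+ samples. The *Itga4* share averaged 27.7% ± 9.24 in SS MAC-1-, 21.1% ± 7.09 in SS MAC-1low, 31.5% ± 7.06 in 4 week MAC-1-, 35.7% ± 10.1 in 4 week MAC-1low and 41.3% ± 5.67 in 4 week MAC-1+ HSCs (SD, n = 3, or 4 for 4 week MAC-1low). In the 3 4 week MAC-1+ samples it was 37.9% to 47.8%, above the 23.4% to 36.5% of the 4 week MAC-1- samples and overlapping at the edge with the 20.2% to 38.02% of the SS MAC-1- samples. The *Itga6* share was 54.0% to 57.6% in the SS MAC-1- samples, where its CPM varied most, and 33.6% to 41.6% in the 4 week MAC-1low samples. It was 23.7% to 53.9% in the 4 week MAC-1+ samples. The *Itgav* share averaged 9.11% in SS MAC-1- and 11.5% in 4 week MAC-1- HSCs, and 23.0% and 23.1% in the SS and 4 week MAC-1low HSCs, with ranges that overlapped. In SS MAC-1low replicate 1 *Itga2* made up 13.5% of the sum, and at most 0.149% elsewhere. No test was run on these shares, which are fixed to a sum and share their library. How often such shares leave groups without overlap was not computed.

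**Figure D4:**
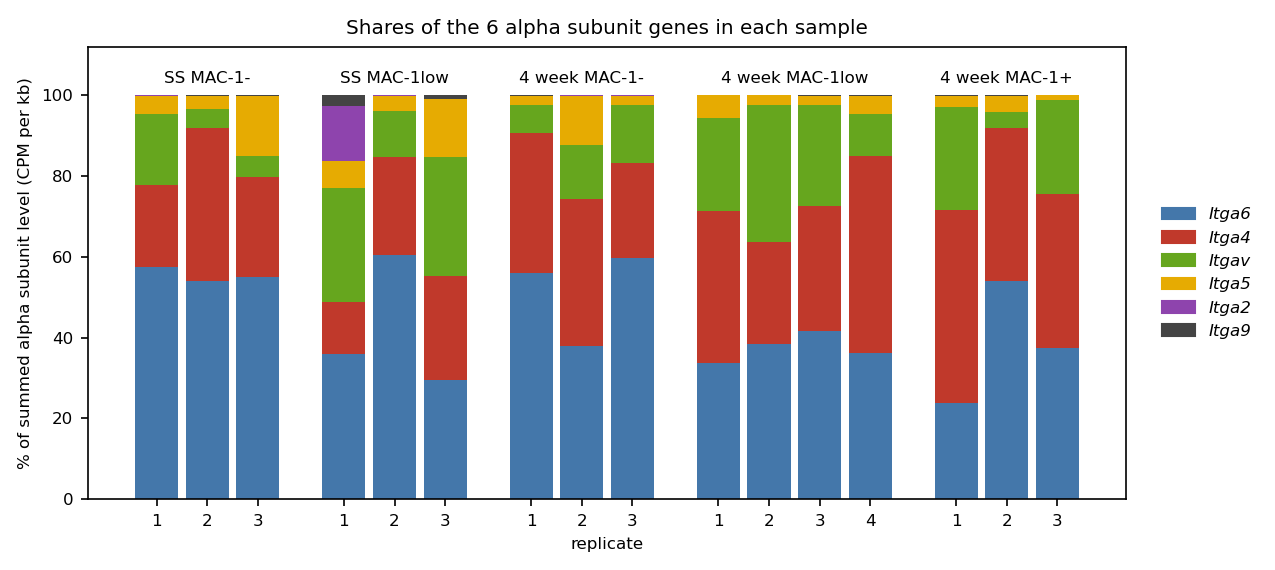
Share in percent (y axis) of each of the 6 alpha subunit genes in their summed level, CPM per kb, for each sample (x axis, replicate numbers by population); the stacked colours are genes and sum to 100% in every bar. *Itga6* and *Itga4* together fill most of every bar but that of SS MAC-1low replicate 1, and *Itga2* is visible in SS MAC-1low replicate 1 alone, at 13.5%.

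The ratio of *Itgb1* to the summed alpha genes, both in CPM per kb, set the shared beta chain against the alpha genes described here. The sum does not cover all alpha partners of beta-1, and alpha-4 and alpha-v also pair with other beta subunits. It was 1.97 ± 0.405 in 4 week MAC-1-, 1.77 ± 0.170 in 4 week MAC-1low and 0.916 ± 0.257 in 4 week MAC-1+ HSCs. The 4 week MAC-1+ samples, from 0.620 to 1.06, lay below the 1.59 to 1.95 of the 4 week MAC-1low and the 1.64 to 2.42 of the 4 week MAC-1- samples. In SS MAC-1- HSCs it was 1.78 ± 1.33, from 1.00 to 3.31, which overlapped with all 3. In SS MAC-1low HSCs it was 1.19 ± 0.543, and the highest sample, at 1.638, lay just below the lowest 4 week MAC-1- sample, at 1.643. These ratios rest on the *Itgb1* values already described and on the summed alpha genes, and were not tested. *Itgb1* itself overlapped between 4 week MAC-1+ (14.2 to 36.3 CPM per kb) and 4 week MAC-1low samples (32.9 to 51.6). The alpha sums were 23.0 to 34.1 and 19.6 to 32.6 CPM per kb. How often such ratios leave groups without overlap was not computed. Among single genes, 8.23% had no overlap in 4 week MAC-1+ relative to 4 week MAC-1low HSCs and 21.7% relative to 4 week MAC-1- HSCs.

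Genes of the machinery around integrins were described from 4 lists. Their counts of calls stand beside the shares of all genes called, which were 3.25% for 4 week MAC-1+ relative to 4 week MAC-1- HSCs, 0.278% for 4 week MAC-1low relative to 4 week MAC-1- HSCs, 0.432% for 4 week MAC-1- relative to SS MAC-1- HSCs, and 2.36% and 1.42% for 4 week MAC-1+ relative to SS MAC-1- and SS MAC-1low HSCs. Of 35 integrin activators and adaptors 29 were tested, and 2 were called in 4 week MAC-1+ relative to 4 week MAC-1- HSCs (background 3.25%), both lower, with a median log2 fold change of 0.02 over the list. *Rap1b*, the small GTPase that drives integrin activation, held 2546 to 4091 CPM in 4 week MAC-1- and 558 to 817 CPM in 4 week MAC-1+ samples, a log2 fold change of -2.26 with an SE of 0.24 and an adjusted p of 2.01e-04 (edgeR). *Rap1b* was also lower in 4 week MAC-1low (772 to 1322 CPM) than in 4 week MAC-1- HSCs, at a log2 fold change of -1.58 (SE 0.21, edgeR adjusted p = 0.00848). It was higher in 4 week MAC-1- than in SS MAC-1- HSCs (849 to 1231 CPM), by 1.55 on the log2 scale (SE 0.23, edgeR adjusted p = 0.0107), with an adjusted p of 0.159 when only these 2 populations were fitted. *Lims1*, which encodes the PINCH adaptor bound to integrin-linked kinase, held 469 to 598 CPM in 4 week MAC-1- and 72.1 to 180 CPM in 4 week MAC-1+ samples, a log2 fold change of -2.12 with an SE of 0.40 and an adjusted p of 0.0125 (edgeR). These *Rap1b* and *Lims1* calls between 4 week populations held when any 1 sample was left out. *Rap1b* and *Lims1* were high in the samples with 4331 to 6783 CPM of megakaryocyte and platelet markers, against 159 to 244 CPM in 4 week MAC-1+ samples, where *Gp1bb* was at 0 throughout. These sums are mostly *Pf4* in the 4 week MAC-1- samples. Whether megakaryocytes were present, and any part of them in both genes, was not tested.

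The other calls in this list rested on fewer settings. *Lims1* was 1.83 higher on the log2 scale in 4 week MAC-1- than in SS MAC-1- HSCs (SE 0.40, edgeR adjusted p = 0.0927), and the call was lost when 13 of the 16 samples were left out in turn, with an adjusted p of up to 0.290. *Cib1*, which binds integrin tails, was lower in 4 week MAC-1+ (27.1 to 65.3 CPM) than in SS MAC-1- (100 to 184 CPM) and SS MAC-1low HSCs (94.1 to 223 CPM), by log2 fold changes of -1.81 (SE 0.45, adjusted p = 0.0715) and -1.83 (SE 0.45, edgeR adjusted p = 0.0957). These *Cib1* calls were lost when 4 and 15 of the 16 samples were left out in turn, and under 2 and 3 of 7 other settings. The *Lims1* call against SS MAC-1- HSCs was lost under 2 of these 7 settings.

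All 10 integrin partner proteins were tested, with 2 calls in 4 week MAC-1+ relative to 4 week MAC-1- HSCs (background 3.25%), both higher, and a list median of -0.44. There were 3 calls in 4 week MAC-1+ relative to SS MAC-1- HSCs (background 2.36%), and 2 each relative to SS MAC-1low HSCs (background 1.42%) and in 4 week MAC-1- relative to SS MAC-1- HSCs (background 0.432%). *Cd53*, a tetraspanin of leukocytes, was at 0 to 0.0734 CPM in SS MAC-1-, 0 to 23.0 in SS MAC-1low, 7.49 to 49.7 in 4 week MAC-1-, 175 to 441 in 4 week MAC-1low and 589 to 667 CPM in 4 week MAC-1+ samples. Its difference between 4 week MAC-1+ and SS MAC-1- HSCs (edgeR adjusted p = 0.00457) held without any 1 sample, and no fold is given against counts of 1, 0 and 0. Against 4 week MAC-1- HSCs its adjusted p was 0.0780 (edgeR), and the call was lost when 10 of the 16 samples were left out in turn. The other call, *Cd82*, averaged 0.0253 CPM in 4 week MAC-1- and 9.65 CPM in 4 week MAC-1+ HSCs (edgeR adjusted p = 0.0909) and was lost for 13 of 16 samples left out. *Cd53* was also higher in 4 week MAC-1- than in SS MAC-1- HSCs (edgeR adjusted p = 0.0332) and in 4 week MAC-1+ than in SS MAC-1low HSCs (edgeR adjusted p = 0.0652), calls that 3 and 5 of 16 samples ended when left out. *Cd63*, a tetraspanin of late endosomes and granules, held 693 to 1149 CPM in SS MAC-1- and 327 to 436 CPM in 4 week MAC-1+ samples, a log2 fold change of -1.31 with an SE of 0.22 (edgeR adjusted p = 0.00934) that held without any 1 sample but not when only these populations were fitted (edgeR adjusted p = 0.180). It was also lower in 4 week MAC-1- than in SS MAC-1- HSCs (-1.14, SE 0.22, edgeR adjusted p = 0.0533) and in 4 week MAC-1+ than in SS MAC-1low HSCs (-0.996, SE 0.22, edgeR adjusted p = 0.0653), calls that 5 and 6 of 16 samples ended when left out. *Cd47*, the integrin-associated protein, was lower in 4 week MAC-1+ (290 to 352 CPM) than in SS MAC-1- samples (541 to 941 CPM), by a log2 fold change of -1.03 (SE 0.22, edgeR adjusted p = 0.0390), a call ended by leaving out SS MAC-1- replicate 3 or 4 week MAC-1+ replicate 3. Fitting only these populations also ended it (edgeR adjusted p = 0.250). Of 7 other settings, 3 ended the *Cd82* call. The *Cd53* calls in 4 week MAC-1- relative to SS MAC-1- and in 4 week MAC-1+ relative to SS MAC-1low HSCs were ended by 3 each. The same 2 comparisons of *Cd63* were ended by 2 each. The neutrophil marker sums given for *Itgb1* apply to the 4 week MAC-1+ samples here, and their part was not tested.

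Of 21 matrix and cell ligands 14 were tested. For 4 week MAC-1+ relative to 4 week MAC-1- HSCs 1 was called (background 3.25%), *Col4a1*, a collagen IV chain, at 35.9 to 43.9 against 4.28 to 6.46 CPM (log2 fold change 2.81, SE 0.75, edgeR adjusted p = 0.0745), with a list median of -0.35. That call was lost for 7 of 16 samples left out. *Spp1*, which encodes osteopontin, a ligand of alpha-4, alpha-9 and alpha-v integrins, had 0 counts in all 3 SS MAC-1- samples and 0.617 to 30.8 CPM in 4 week MAC-1+ samples (edgeR adjusted p = 0.0637), a call lost for 5 of 16 samples left out. The wide range of *Spp1* held 13 counts at its lowest 4 week MAC-1+ sample. Under 3 of 7 other settings each, the *Col4a1* and *Spp1* calls were lost as well.

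Of the other 18 integrin subunits 9 were tested, and 1 was called in 4 week MAC-1+ relative to 4 week MAC-1- HSCs (background 3.25%), with a list median of 0.28. *Itga2b*, the platelet alpha-IIb subunit and 1 of the megakaryocyte markers above, held 45.9 to 59.9 CPM in 4 week MAC-1- and 2.51 to 6.96 CPM in 4 week MAC-1+ samples, a log2 fold change of -3.71 (SE 0.71, edgeR adjusted p = 0.0125) that held without any 1 sample but not with all genes kept in the test (edgeR adjusted p = 0.137). *Itgal*, the alpha subunit of LFA-1, was at 0 to 0.0524 CPM in SS MAC-1- and 1.38 to 19.1 CPM in 4 week MAC-1+ samples (edgeR adjusted p = 0.0833), a call lost for 11 of 16 samples left out. Under 4 of 7 other settings the *Itgal* call was lost as well. In 4 week MAC-1+ relative to 4 week MAC-1low HSCs, in SS MAC-1low relative to SS MAC-1- HSCs, in 4 week MAC-1low relative to SS MAC-1low HSCs and for the interaction, none of the 4 lists had a call. In the first of these comparisons 0 of 13661 genes were called by edgeR, where 936 had an unadjusted p below 0.05, DESeq2 called 318 and limma-voom 1.

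The genes whose log2 CPM was most like that of each member over the 16 samples were listed among 11069 other genes with a mean of at least 50 counts, as a description. For *Itgb1* they were *Fam196a* (Pearson's r = 0.84), *Ints6* (0.82) and *Nifk* (0.81), and for *Itga4* they were *Paip1* (0.88), *Tra2a* (0.87) and *Celf1* (0.85). For *Itga6* they were *Zfp398* (0.79), *Arl15* (0.79) and *Dqx1* (0.75), and for *Itgav* they were *Agap3*, *Atp6ap1* (both 0.82) and *Nek1* (0.81). The nearest genes to *Itga5* were *Pdgfrl* (0.81), *Il15ra* (0.73) and *Chml* (0.72), and to *Itgb7* they were *Taf1b* (0.79), *Rexo1* (0.74) and *Csnk1g3* (0.72). The points share libraries and depth, and the best of so many genes is high in any such search.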

How the data were processed

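The deposited values are raw counts, whole numbers of reads per gene for every sample. SMART-Seq v4 cDNA from the sorted HSCs was made into Nextera XT libraries, sequenced on a NextSeq and aligned with STAR in the nf-core RNA-seq pipeline. How reads were assigned to genes, and on which genome build and annotation, is not given in the sources used here. No molecular identifiers were used, so PCR copies are counted as reads, a transcript can be missed in a whole sample, and floors of 3 counts cover counting error only. Columns were matched to samples by their labels.

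Members and gene lists were chosen with earlier results of these data known. Positions and exon lengths came from GENCODE M21, which holds 98.2% of the identifiers. The test was that of edgeR 4.0.16 in R 4.3.3 (TMM factors, filterByExpr with a minimum count of 10 and a minimum total of 15, robust quasi-likelihood tests, 1 model of the 5 population means fitted over all 16 samples). Adjusted p are Benjamini-Hochberg values over all 13661 genes tested, and members were called below 0.1. Intervals are at 95%. CPM used TMM factors, and log2 CPM for likeness a prior count of 2. Levels between genes were compared as CPM per kb of exons. All 8 members are named, and list genes where called. Of the 48 pairwise member tests the 2 with the smallest p of each member and those without overlap or between the MAC-1+ and MAC-1- populations at 4 weeks are printed singly and the others as ranges. Alternatives were DESeq2 1.42.0, limma-voom (limma 3.58.1) with sample weights, DESeq2's size factors, no or a stricter filter (at least 1 CPM in 3 samples), only the populations compared, the replicate number as a block and leaving out each sample in turn. Replicates of each population differed by more than counting noise (chi-square per degree of freedom 120 to 291), so no sample was counted as a copy of another, which does not show that they came from separate sorts or mice. The scripts were tested on simulated data. Figures used matplotlib 3.10.9 under Python 3.11.15.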

Additional observations from a re-analysis of the deposited data

Results flagged for a closer look

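In 4 week MAC-1low HSCs, the population with 4 samples, *Itga2* was at 0 counts in 3 samples and at 4 counts in replicate 4, so that the gap of the highest sample to the next was the whole range (a ratio of 1, above Dixon's critical value for 4 samples). A chance rate of about 1 in 20 groups holds for normally distributed values and not here. With 3 samples at 0, any count above 0 in the other sample gives a ratio of 1. In all, 8 genes were looked at, and a gap of 4 counts is near the floor of 3 counts that a count of 0 allows. The other 7 genes were not flagged in this population, and populations of 3 samples were not examined in this way.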

How the results depend on the processing

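The number of called members was recomputed 229 times over the 10 tests and their alternatives, and 228 of these counts were 0. With no filter on low counts the joint test called 1 member, *Itga2* (edgeR adjusted p = 0.0739), whose counts came almost wholly from SS MAC-1low replicate 1, among 2420 genes called. Of 500 alternative values of the 22 member results, 492 kept direction and side of the threshold, and 0 passed the threshold. With limma-voom *Itgb7* turned to -0.0065 in 4 week MAC-1+ relative to 4 week MAC-1- HSCs and to 1.30 in 4 week MAC-1- relative to SS MAC-1- HSCs, and the cause was not tested. Leaving out 1 sample gave ranges of -0.51 to 0.74 for the first, turned by leaving out 4 week MAC-1- replicate 1 or 4 week MAC-1+ replicate 3, and of -2.68 to 1.96 for the second. It gave -5.16 to 0.22 for *Itgb7* in SS MAC-1low relative to SS MAC-1- HSCs, both turned by SS MAC-1- replicate 3. For *Itga5* it gave -1.31 to 0.04 in 4 week MAC-1+ relative to 4 week MAC-1- HSCs (4 week MAC-1- replicate 2) and -2.38 to 0.11 against SS MAC-1- HSCs (SS MAC-1- replicate 3). Without 1 sample these values kept their direction and moved by over 1.5 times: *Itgb1* in 4 week MAC-1+ relative to 4 week MAC-1low HSCs reached -0.42, and relative to 4 week MAC-1- HSCs *Itga4* ran from 0.28 to 0.67, *Itga6* from -0.70 to -0.20 and *Itgav* from 0.45 to 1.34. Relative to SS MAC-1- HSCs *Itga4* in 4 week MAC-1+ HSCs reached 1.45 and *Itgav* 0.89. Deviations of same-numbered samples correlated at -0.025 to 0.040 in 30 pairs. Over all pairs of samples from different populations, however numbered, the correlations ran from -0.026 to 0.040, so the replicate numbers were not taken to pair samples. Between the replicate 1 samples of 4 week MAC-1-, MAC-1low and MAC-1+ HSCs they were 0.040, 0.033 and 0.025, near the top of this range. Mitochondrial genes held 9.15%, 9.55% and 9.62% of the counts in these samples, and at most 8.43% in any other. Whether these samples shared a sort is not given and was not tested. Running numbers in the column names set 4 week MAC-1- replicate 2 beside replicate 3 of 4 week MAC-1low and MAC-1+. They set 4 week MAC-1- replicate 3 beside 4 week MAC-1low replicate 4. These pairs correlated at 0.023, -0.011 and 0.020. No label says what the running numbers mean, and no block on them was fitted. The replicate block follows the replicate numbers, so a pairing by running number was not tested. The replicate block left the count of called members at 0 in all 10 tests and gave -1.01 for *Itgb1* in 4 week MAC-1+ relative to 4 week MAC-1- HSCs (edgeR adjusted p = 0.393), and the calls over all genes there fell from 444 to 327. DESeq2 called 1321 genes in that comparison and limma-voom 866. *Itgb7* had 0 to 3 counts in 5 of 16 samples, and a floor of 3 counts, 0.112 to 0.220 CPM, limits what can be said of it, *Itga2* and *Itga9*.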
